A study of Mus musculus with 12 samples.

Results

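The 3 genes described here, Zp1, Zp2 and Zp3, encode the glycoproteins of the mouse zona pellucida. They were taken by symbol from the deposited count tables, in which each of the 3 symbols has 1 entry among 24562 genes. RNA-Seq was run on 12 oocyte pools of CD-1 mice, with 3 pools in each of 4 cohorts and 18 to 45 oocytes in a pool. One cohort was taken at postnatal day (PND) 13 and one at PND 40, and animals of PND 16 were divided by body weight into PND 16 small and PND 16 large. All oocytes came from antral follicles of ovaries that had received no gonadotropin, were stripped of cumulus cells by mechanical means, and were kept at the germinal vesicle stage with milrinone until they were frozen. The study treats PND 13 and PND 16 small oocytes as meiotically non-competent, and PND 16 large and PND 40 oocytes as competent, that is, able to complete the first meiotic division in culture. No transgene, deletion or treatment distinguishes the cohorts, so age and body weight are the only labelled differences. Because each sample is a pool of oocytes, the spread between pools is not that between single oocytes or animals.

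The zona pellucida is the extracellular coat that the growing oocyte secretes around itself and through which a sperm must pass. In the mouse, ZP2 and ZP3 form the long filaments of this coat and ZP1 joins the filaments to each other. The N-terminal region of ZP2 takes part in sperm binding and is cut after fertilization by ovastacin, the product of Astl, which is released from cortical granules. The 3 genes are transcribed almost exclusively in growing oocytes, and the oocyte factor FIGLA, a basic helix-loop-helix protein that pairs with E12 and E47 (products of Tcf3), activates them through E-boxes near their start sites. Each protein enters the endoplasmic reticulum by a signal peptide, is folded and glycosylated there, and is released near the plasma membrane after cleavage at a furin-type site.

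In the GENCODE M21 annotation of GRCm38, the mm10 assembly named in the submitters' processing notes, Zp1 (gene ID 22786) lies on the minus strand at chr19:10914287-10920632. Zp2 (gene ID 22787) lies on the minus strand at chr7:120126772-120145291, and Zp3 (gene ID 22788) on the plus strand at chr5:135980099-135988624. None of the 3 genes overlaps another annotated gene. The longest annotated transcript is Zp1-201 with 12 exons and 1963 bases, of which 1872 are coding. For Zp3 it is Zp3-201, with 8 exons and 1323 bases, of which 1275 are coding. For Zp2 it has 2393 bases and is annotated as a target of nonsense-mediated decay, while the full-length coding transcript Zp2-201 has 18 exons and 2221 bases, of which 2142 are coding.

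The Zp3 promoter is shown because FIGLA is known to act through an E-box in this region. The sequence below is from RefSeq on GRCm38.p6, chr5:135979855-135980098 on the plus strand, and covers positions -250 to -7 relative to the start site. Capitals mark each CANNTG (the E-box letters) and each TATAA.
Zp3 promoter: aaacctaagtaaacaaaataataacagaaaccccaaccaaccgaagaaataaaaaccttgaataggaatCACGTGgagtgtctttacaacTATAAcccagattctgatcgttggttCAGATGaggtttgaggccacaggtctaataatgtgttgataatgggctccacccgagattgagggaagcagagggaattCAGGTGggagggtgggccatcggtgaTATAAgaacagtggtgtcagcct
Only this one of the 3 promoters was matched. It holds 3 E-boxes, which read the same on both strands as CANNTG. They start at positions -181 (CACGTG), -134 (CAGATG) and -55 (CAGGTG). Of 32851 RefSeq promoters cut to the same window, 65.6% held at least 1 CANNTG and 11.7% held at least 3. The palindrome CACGTG, itself one of the CANNTG matches, was found in 5.82% of the promoters. TATAA, searched on the sense strand only, starts at positions -160 and -29 of Zp3 and overlaps none of the E-boxes. At least 1 TATAA was found in 15.7% of the promoters and at least 2 in 2.42%. These matches describe letters and are not measured binding sites.

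Between 17671193 and 27418358 reads were counted per pool. The 10 oocyte markers, among them Gdf9 and Bmp15, summed to between 11700 and 13971 CPM, which are counts scaled to a fixed library total, in every pool, and all 10 were detected. The 16 granulosa and cumulus cell markers summed to between 133 and 266 CPM in 9 pools. They reached 551 and 638 CPM in replicates 1 and 3 of PND 13 and 695 CPM in replicate 2 of PND 16 small. The 3 pools with the most RNA of these granulosa and cumulus markers thus all belonged to non-competent cohorts. All 16 markers had counts in at least 1 pool. Their means ran from 0.020 CPM for Ptx3 to 109 CPM for the nuclear receptor gene Nr5a2. Their part in the results was not tested as a cause, but the fold changes of the 3 zona genes and the ratios between competent and non-competent pools were also computed without these 3 pools. The 4 haemoglobin genes had no count in any pool. Theca and stroma markers summed to 46.8 CPM in replicate 2 of PND 16 large, a competent pool, and to at most 34.1 CPM elsewhere.

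All 3 zona genes were among the most abundant transcripts of the oocyte. Together they took 0.652% to 0.784% of all counts at PND 13, 0.626% to 0.709% in PND 16 small, 0.563% to 0.606% in PND 16 large and 0.425% to 0.446% at PND 40. By count, Zp2 ranked between 6 and 22 of all genes across the 12 pools, Zp3 between 19 and 69, and Zp1 between 39 and 118. Per length of transcript, among 24212 genes with an annotated length, Zp2 ranked between 5 and 15, Zp3 between 7 and 13 and Zp1 between 18 and 47. The genes are compared with each other only on this scale. At PND 13 the level per kb of longest transcript was 1620 ± 120 CPM per kb for Zp2, 1375 ± 143 for Zp3 and 646 ± 62.7 for Zp1 (mean ± SD, n = 3). At PND 40 it was 906 ± 33.6 CPM per kb for Zp2, 945 ± 10.8 for Zp3 and 472 ± 10.9 for Zp1. Zp1 was thus the least abundant per kb in every cohort. By longest transcript, Zp2 was above Zp3 per kb in both non-competent cohorts and below it at PND 40. The same held with the union of exons as length, where Zp2 came to 1423 CPM per kb at PND 13 and 796 at PND 40. These differences were not tested, and with the union of exons those in the non-competent cohorts were smaller than the SD between pools. In PND 16 large the order turned with the length used, Zp2 having 1315 CPM per kb of longest transcript and 1155 per kb of the union of exons, against 1244 for Zp3 by either length. Both lengths of Zp2 (2393 and 2724 bases) exceed the 2221 bases of its full-length coding transcript. By that length Zp2 would lie above Zp3 in PND 16 large and at PND 40 too. The order of Zp2 and Zp3 in the competent cohorts thus depends on the length chosen. The lowest count of any of the 3 genes in a pool was 21100, where counting error alone amounts to 0.688%, so depth did not limit these measurements.

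Zp2, which carries the sperm-binding region, showed the widest range over the cohorts. Values below are CPM with the TMM scaling of edgeR (trimmed mean of M-values). At PND 13 the 3 pools had 3551, 3988 and 4089 CPM (3876 ± 286, mean ± SD, n = 3). In PND 16 small they had 3948, 3481 and 4283 CPM (3904 ± 403). These first 2 cohorts covered nearly the same range. In PND 16 large the pools had 3209, 2939 and 3291 CPM (3146 ± 184). At PND 40 they had 2121, 2262 and 2124 CPM (2169 ± 80.5). Every PND 16 large pool lay below every non-competent pool, and every PND 40 pool lay below every PND 16 large pool.

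Zp3, the partner of ZP2 in the filament, was likewise lowest at PND 40 and next lowest in PND 16 large, with smaller steps than Zp2. The PND 13 pools had 1600, 1935 and 1921 CPM (1819 ± 190) and the PND 16 small pools 1899, 1656 and 1763 CPM (1772 ± 122). The PND 16 large pools had 1607, 1607 and 1724 CPM (1646 ± 67.4), within the range of the 2 non-competent cohorts. At PND 40 the values were 1264, 1249 and 1236 CPM (1250 ± 14.3), which lay below all other pools and had the least spread.

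Zp1, which links the filaments, had 1125, 1345 and 1331 CPM at PND 13 (1267 ± 123) and 1311, 1201 and 1298 CPM in PND 16 small (1270 ± 60.1). The PND 16 large pools had 1206, 1087 and 1186 CPM (1160 ± 63.5), overlapping with both non-competent cohorts. The PND 40 pools had 905, 948 and 924 CPM (926 ± 21.5), again below all other pools. The plot of levels by pool shows these values for the 3 genes side by side.

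**Figure D1:**
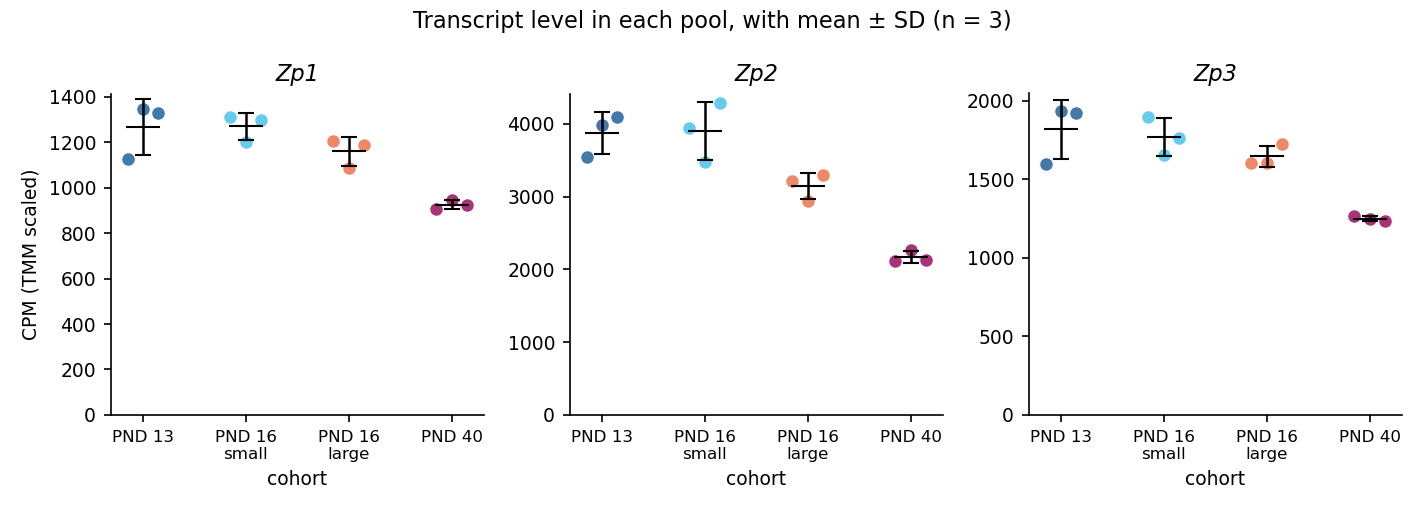
Level of Zp1, Zp2 and Zp3 in each of the 12 pools, in CPM scaled by TMM (vertical axes from 0, a separate scale for each gene), by cohort (horizontal axis). Points are pools, horizontal bars are means and whiskers are the SD of 3 pools; the PND 40 pools lie below all others for each gene, with means of 926, 2169 and 1250 CPM.

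CPM is relative to all RNA in a pool, and in pools of oocytes fewer oocytes expressing a gene and less of its RNA per oocyte cannot be told apart. A gene with unchanged RNA per oocyte also has a lower CPM where the oocyte holds more RNA in total. The paper reports smaller oocyte diameters in its youngest age cohorts. RNA per oocyte was not tested, so lower levels below are lower shares of the RNA in a pool. Differences between cohorts were tested with edgeR's quasi-likelihood test, adjusted by the Benjamini-Hochberg method over 13943 genes. A gene was called differentially expressed, by the study's own criteria, at an adjusted p of at most 0.05 and a change of at least 1.5-fold. All 3 zona genes were among the genes tested.

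The first comparison asked whether the 2 non-competent cohorts differed. None of the 3 genes was differentially expressed in PND 16 small vs. PND 13 by edgeR or DESeq2, and none had an unadjusted p under 0.05. Over all genes, edgeR called 52 (0.373%), and 2684 (19.2%) had an unadjusted p under 0.05. The log2 fold change was 0.00 ± 0.08 for Zp1, 0.01 ± 0.08 for Zp2 and -0.04 ± 0.08 for Zp3 (± standard error), with adjusted p = 0.989, 0.964 and 0.841. The groups overlapped for each gene, and the sign of the change turned with the scaling and with single pools for Zp1 and Zp2, and for Zp3 only without replicate 3 of PND 13 among the settings tried.

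PND 16 large oocytes were then compared with those of the younger and of the smaller animals. Zp2 was lower in PND 16 large than at PND 13, with a log2 fold change of -0.30 ± 0.08 (adjusted p = 0.0199, edgeR), and lower than in PND 16 small, with -0.31 ± 0.08 (adjusted p = 0.0311). An adjusted p of at most 0.05 in this direction was reached by 13% and 7.32% of all genes. The Zp2 groups did not overlap in either comparison, as was true, in the lower direction, for 22.8% and 15.2% of all genes. Neither change reached 1.5-fold, so none of the 3 genes was called by edgeR or DESeq2, against 13.3% and 6.19% of all genes by edgeR. Zp1 had log2 fold changes of -0.13 ± 0.08 in both comparisons (adjusted p = 0.243 and 0.288), and Zp3 had -0.14 ± 0.08 and -0.11 ± 0.08 (adjusted p = 0.207 and 0.418). Their groups overlapped. Without replicate 1 of PND 13, Zp3 had -0.23 vs. PND 13 (adjusted p = 0.0456). The adjusted p of Zp2 rose to 0.081 vs. PND 13 without replicate 3 of PND 13 and to 0.0734 without replicate 2 of PND 16 large. Vs. PND 16 small it lay between 0.0546 and 0.128 when any one of the PND 16 large pools or replicate 1 or 3 of PND 16 small was left out.

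PND 40 was compared with both non-competent cohorts. Zp2 fell in both, by 0.84 on the log2 scale vs. PND 13 (standard error 0.09, adjusted p = 3.87e-05, edgeR) and by 0.85 vs. PND 16 small (standard error 0.09, adjusted p = 3.48e-05). It was the 1 zona gene called in each comparison, where 18.9% and 17.2% of all genes were called. Zp3 had log2 fold changes of -0.54 ± 0.08 vs. PND 13 and -0.50 ± 0.08 vs. PND 16 small, with adjusted p = 0.000291 and 0.00055, and Zp1 had -0.45 ± 0.08 and -0.46 ± 0.08, with adjusted p = 0.000746 and 0.000827. These 2 genes passed the adjusted p, as did 16.7% and 15.7% of all genes in the lower direction, but not the 1.5-fold criterion. For all 3 genes, the PND 40 pools lay below every pool of the other cohort, as they did for 24.5% of all genes vs. PND 13 and 20.5% vs. PND 16 small. Of the genes tested, 16.7% had a log2 fold change as low as that of Zp2 vs. PND 13, and 13.9% vs. PND 16 small. Without the 3 pools rich in granulosa markers, which leaves 1 pool at PND 13 that is assumed to vary like the other cohorts, the change of Zp2 was -0.88 and -0.92, and Zp3 met both criteria vs. PND 13 with -0.63 (adjusted p = 0.00156). Zp3 also met both vs. PND 13 without replicate 1 of PND 13 alone, with -0.62 (adjusted p = 0.000212).

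PND 40 and PND 16 large oocytes are both competent, and the study compared them as gametes of different quality. All 3 genes were lower at PND 40, with log2 fold changes of -0.54 ± 0.09 for Zp2 (adjusted p = 0.00343, edgeR), -0.40 ± 0.08 for Zp3 (adjusted p = 0.0109) and -0.32 ± 0.08 for Zp1 (adjusted p = 0.0241). The PND 40 pools lay below every PND 16 large pool for each gene, as for 18.5% of all genes. In the lower direction, 3.24% of all genes passed the adjusted p. None of the 3 reached 1.5-fold, so none was called by edgeR or DESeq2, against 3.66% of all genes. A log2 fold change as low as that of Zp2 was found in 10.01% of the genes tested. Zp2 met both criteria without replicate 2 of PND 16 large, with -0.59 (adjusted p = 0.00674). The adjusted p of Zp1 lay between 0.0716 and 0.103 when any one of 5 pools was left out (all but replicate 2 of PND 16 large), and that of Zp3 was 0.0625 without replicate 3 of PND 16 large and 0.053 without replicate 3 of PND 40.

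Between competent and non-competent oocytes, with 6 pools in each group, Zp2 was 2658 ± 550 and 3890 ± 313 CPM, Zp3 was 1448 ± 222 and 1796 ± 145 CPM, and Zp1 was 1043 ± 135 and 1269 ± 86.6 CPM (mean ± SD). The log2 fold change was -0.55 ± 0.12 for Zp2 (adjusted p = 0.00296, edgeR), -0.31 ± 0.09 for Zp3 (adjusted p = 0.0226) and -0.28 ± 0.08 for Zp1 (adjusted p = 0.0189). All 3 passed the adjusted p, as did 16.5% of all genes in the lower direction. Only Zp2 had groups that did not overlap, as did 7.81% of all genes in the lower direction. None of the 3 was called by edgeR or DESeq2, against 15% of all genes by edgeR. Without the 3 pools rich in granulosa markers, the changes were -0.61, -0.36 and -0.33 for Zp2, Zp3 and Zp1, and Zp2 then met both criteria (adjusted p = 0.0145). Zp2 also met both when replicate 2 of PND 16 small or any one PND 16 large pool was left out, with log2 fold changes of -0.63 to -0.59, whereas the adjusted p of Zp3 lay between 0.0573 and 0.0597 without any one PND 40 pool, and that of Zp1 was 0.0502 and 0.0508 without replicate 1 or 2 of PND 40.

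**Figure D2:**
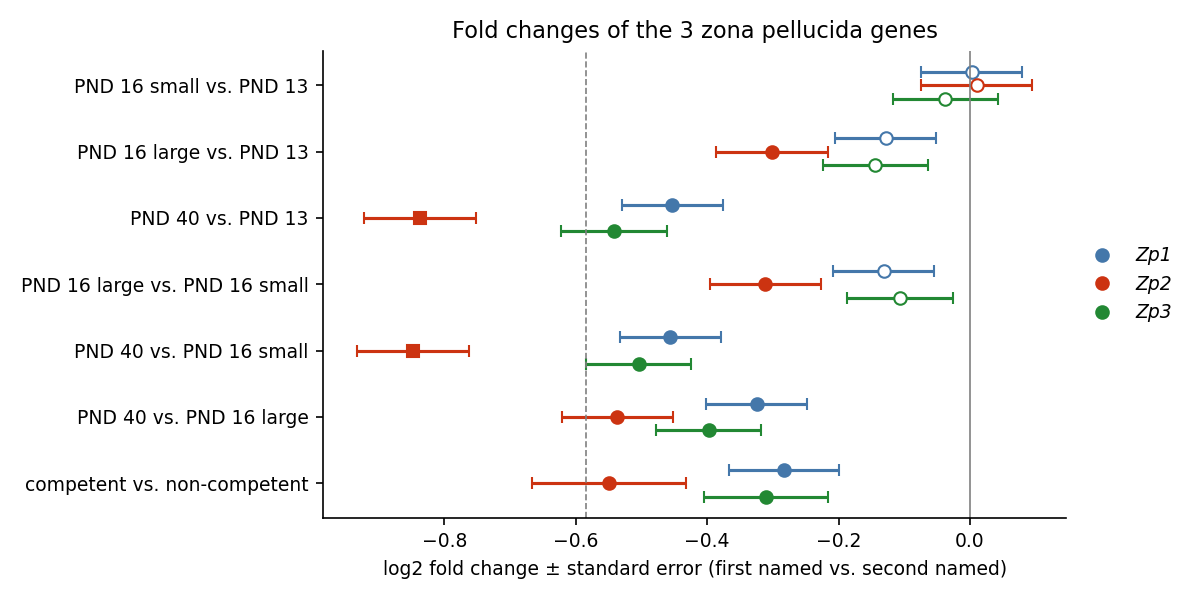
Log2 fold change (horizontal axis) of Zp1, Zp2 and Zp3 in the 6 pairwise comparisons of cohorts and in competent vs. non-competent oocytes (vertical axis). Whiskers are standard errors, filled symbols have an adjusted p of at most 0.05, squares also reach 1.5-fold (dashed line); Zp2 lies farthest to the left wherever a PND 16 large or PND 40 pool enters, and its 2 squares are at -0.84 and -0.85.

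Whether the 3 genes moved alike was asked from the ratios of their counts within a pool. How such a ratio differs between pools depends neither on the scaling between pools nor on the gene lengths, whereas its size depends on the lengths and is not a comparison of levels. Zp2 had 2.96 to 3.16 times the counts of Zp1 in the PND 13 pools and 2.90 to 3.30 times in the PND 16 small pools. This fell outside the range of the competent pools, in which Zp2 had 2.66 to 2.78 times the counts of Zp1 in PND 16 large and 2.30 to 2.39 times at PND 40. The log2 ratio of Zp1 to Zp2 was -1.33 ± 0.12 in competent and -1.62 ± 0.07 in non-competent pools (mean ± SD, n = 6 each), a difference of 0.28. In an exact two-sided permutation test over the 12 pools, p was 0.00216, the smallest that the design allows, and the adjusted p over the 3 ratios was 0.00325. For each of the 3 ratios this test treats the pools as exchangeable, although each group is made of 3 pools from each of 2 cohorts. Its p therefore does not account for differences between cohorts of the same group.

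Zp2 moved in the same way relative to Zp3. The counts of Zp2 were 2.06 to 2.22 times those of Zp3 at PND 13 and 2.08 to 2.43 times in PND 16 small. They were 1.83 to 2.00 times those of Zp3 in PND 16 large and 1.68 to 1.81 times at PND 40, with no overlap between competent and non-competent pools. The log2 ratio of Zp2 to Zp3 was 0.86 ± 0.09 in competent and 1.12 ± 0.09 in non-competent pools, a difference of -0.25 (exact permutation p = 0.00216, adjusted p = 0.00325).

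The ratio of Zp1 to Zp3 differed between competent and non-competent pools by less than the spread between pools. Its log2 value was -0.47 ± 0.07 in competent and -0.50 ± 0.04 in non-competent pools, a difference of 0.03 (exact permutation p = 0.366, adjusted p = 0.366), and the groups overlapped. Across all 12 pools Zp1 had between 0.676 and 0.759 times the counts of Zp3. Between single cohorts, 3 pools against 3 cannot give a p below 0.1. The ratios of Zp1 to Zp2 and of Zp2 to Zp3 did not overlap in any of the 5 pairs other than PND 16 small vs. PND 13. The ratio of Zp1 to Zp3 did not overlap in PND 40 vs. PND 13 alone, with a difference of 0.09 on the log2 scale. In either direction, the levels of 31.5% to 50.8% of all single genes did not overlap in these 5 pairs. Between competent and non-competent pools this was so for 14.7% of all genes. How often the ratios of other gene pairs do not overlap was not computed. For Zp1 to Zp2 and Zp2 to Zp3, PND 40 also stood apart from PND 16 large, with differences of 0.21 and -0.14 on the log2 scale. Without the 3 pools rich in granulosa markers, the differences between competent and non-competent pools were 0.29 and -0.26 (exact permutation test, adjusted p = 0.0357 for both).

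**Figure D3:**
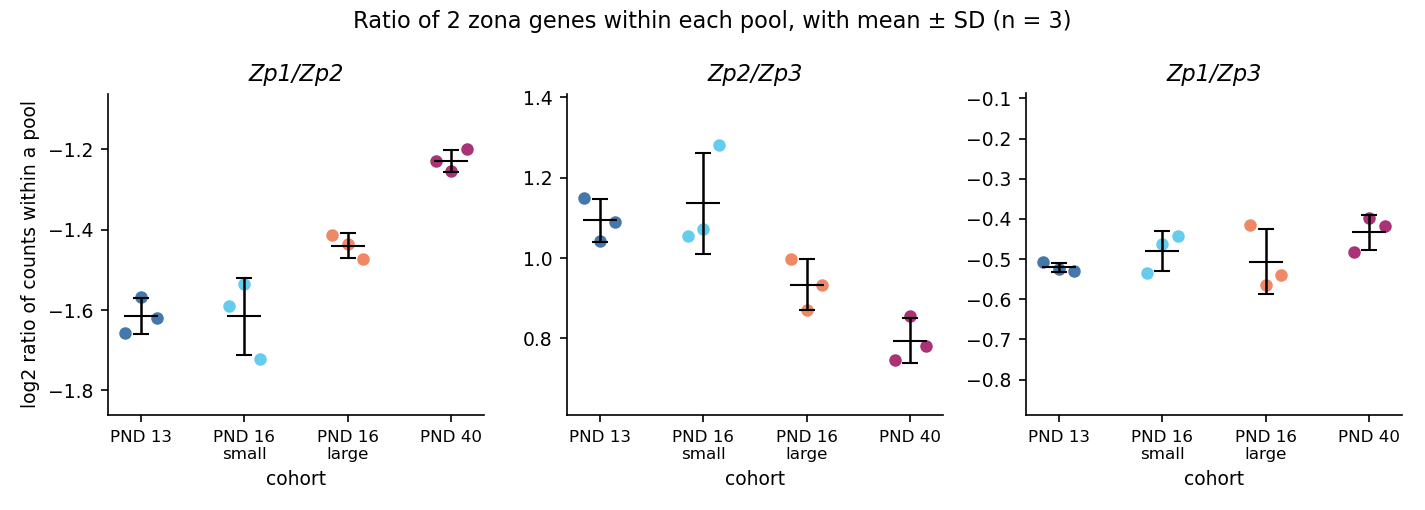
Log2 ratio of the counts of 2 zona genes within each pool (vertical axes, each spanning the same number of log2 units) by cohort (horizontal axis), with the mean and SD of 3 pools. Zp1/Zp2 is higher and Zp2/Zp3 lower in the 6 PND 16 large and PND 40 pools than in the 6 others, while Zp1/Zp3 overlaps.

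Genes of like pattern were sought among the 7857 genes that averaged 10 CPM or more, by the root mean square (RMS) difference between their log2 CPM profiles over the 12 pools, each centred on its mean. For Zp1 the nearest of all these genes was Zp3, with an RMS difference of 0.05 on the log2 scale, against a median of 0.30 over all genes. The next for Zp1 were Ogdhl, Mtmr14, the translation initiation factor gene Eif4g1 and the oocyte gene Nlrp14, with 0.07 each. Zp1 was likewise nearest to Zp3, followed by Ctsd, which encodes the lysosomal protease cathepsin D, the kinase gene Tyk2, Cc2d1b and Mtmr14, with 0.08 each. Zp2 ranked 542 in likeness to Zp1 and 233 in likeness to Zp3. In likeness to Zp2, Zp3 ranked 56 and Zp1 ranked 104. Their RMS differences from Zp2 were 0.15 and 0.17, against a median of 0.43 over all genes. The genes nearest to Zp2 were Lama2, a laminin subunit gene, with 0.07, the heat shock protein gene Hspa4 and Aplp2 with 0.09 each, Rffl with 0.11 and Slc35e2 with 0.11. The points share their libraries, so these distances are a description.

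The upstream factors and the processing machinery of the zona were followed in competent vs. non-competent oocytes. Figla had 9.55 ± 1.92 CPM in competent and 9.39 ± 2.49 CPM in non-competent pools (log2 fold change 0.02 ± 0.19, adjusted p = 0.946, edgeR). Its cohort means were 11.3 ± 0.869 CPM at PND 13, 7.45 ± 1.86 in PND 16 small, 11.0 ± 1.46 in PND 16 large and 8.05 ± 0.592 at PND 40. The order of these means was not tested against that of the 3 zona genes. Of 8 zona regulators, 0 rose and 1 fell, against 3.78% and 11.2% of all genes called higher and lower. The median log2 fold change of this list was -0.12, beside -0.00 over all genes. The gene that fell was Tcf12, which encodes an E-protein, by 0.72 (54.8 ± 6.64 vs. 90.4 ± 9.11 CPM, adjusted p = 8.84e-05). Sohlh2, a transcription factor of early oocyte growth, was singled out after its values were seen. It had 9.18 ± 0.998 CPM at PND 40 and between 2.88 and 3.90 CPM as the mean of each other cohort. It was called higher at PND 40 in all 3 pairs (edgeR, adjusted p = 0.0015, 0.000943 and 0.00193 vs. PND 13, PND 16 small and PND 16 large). Among all genes, 6.31%, 6.89% and 2.34% were called higher in these pairs and 12.6%, 10.3% and 1.32% lower. Of the 8 regulators, 1, 1 and 2 were called higher in them and 1, 2 and 0 lower. Sohlh2 was thus 1 of the 2 regulators called higher vs. PND 16 large.

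Of the 9 zona processing genes, 0 rose and 2 fell, against 3.78% and 11.2% of all genes called higher and lower. The median log2 fold change of this list was -0.28, beside -0.00 over all genes. Furin, which encodes the protease of the zona cleavage site, had 577 ± 38.0 vs. 545 ± 18.1 CPM (log2 fold change 0.08 ± 0.06, adjusted p = 0.274). Astl, for the ZP2-cutting protease ovastacin, had 773 ± 46.2 vs. 942 ± 116 CPM, a log2 fold change of -0.28 ± 0.08 (adjusted p = 0.0145) that did not reach 1.5-fold. The genes that fell were Mgat2, an N-glycan branching enzyme, by 1.88 (2.14 ± 0.554 vs. 7.89 ± 1.69 CPM, adjusted p = 4.42e-05), and C1galt1, the core O-glycan galactosyltransferase, by 0.81 (adjusted p = 0.00172).

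None of the 12 endoplasmic reticulum folding genes was called by edgeR, and 6 had an unadjusted p under 0.05, as did 42.1% of all genes, with a median of -0.17. Of the 14 N-glycosylation genes 0 rose and 3 fell, with a median of -0.10. These were Alg5 and Dolpp1, enzymes of dolichol-linked sugar metabolism that fell by 1.68 and 1.61 (adjusted p = 0.000903 and 0.00183) from low levels of 3.73 and 2.21 CPM, and Alg2, by 0.63. Of the 15 signal peptide and translocon genes 1 rose and 1 fell, with a median of 0.32. Spcs3, a subunit of the signal peptidase, fell by 1.66 (mean 16.8 vs. 53.1 CPM, adjusted p = 1.2e-05), while Sec11c, a catalytic subunit of the same complex, rose by 0.73 (standard error 0.18, adjusted p = 0.00773) with overlapping groups. Among all genes, 11.2% were called lower and 3.78% higher in this comparison.

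Of 12 other genes with a zona pellucida domain or related to zona genes, 5 were expressed enough to be tested. Against 15% of all genes, 1 of the 5 was called. This was Zp4-ps, the mouse pseudogene of the fourth zona gene, which fell by 1.13 (2.95 ± 1.27 vs. 6.47 ± 2.84 CPM, adjusted p = 0.0287) with overlapping groups, at a level far below that of Zp1, Zp2 and Zp3. The other 4 tested, among them Tgfbr3 and Umodl1, were not called.

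**Figure D4:**
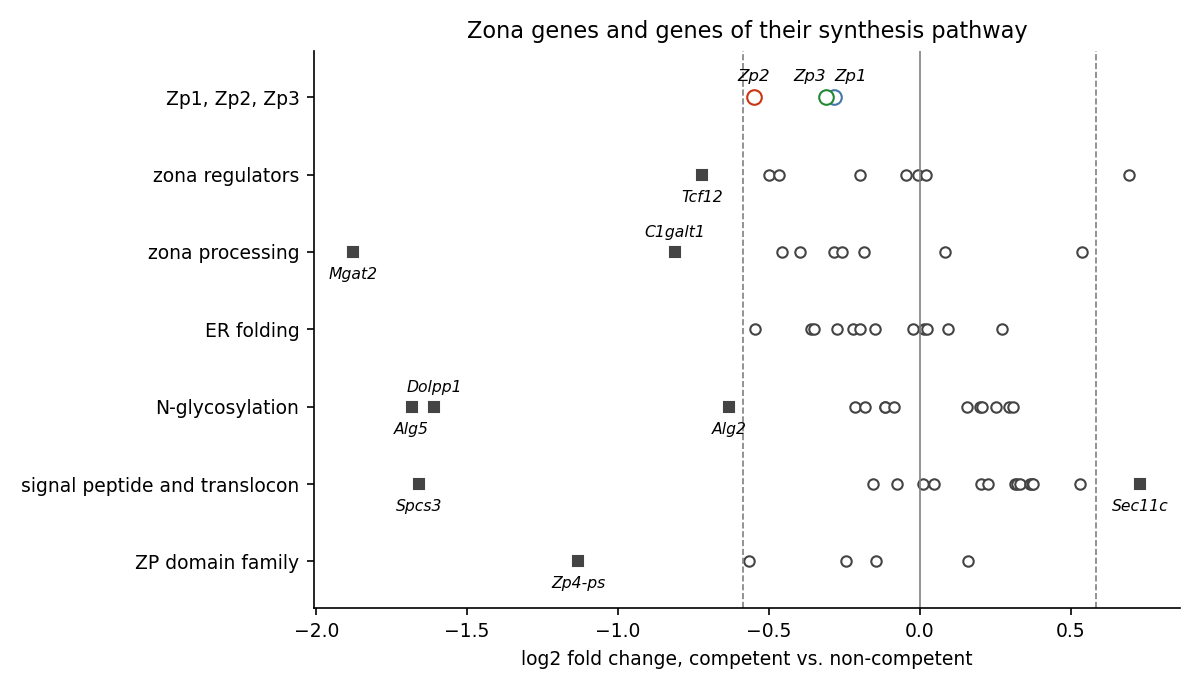
Log2 fold change in competent vs. non-competent oocytes (horizontal axis) of Zp1, Zp2, Zp3 and of the genes of each list (vertical axis), 1 symbol per gene. Black squares with names are differentially expressed, open circles are not, and dashed lines mark 1.5-fold; the 3 zona genes lie at -0.55 (Zp2), -0.31 (Zp3) and -0.28 (Zp1), short of the line.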

How the data were processed

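The authors deposited raw read counts per gene for 12 oocyte pools and a log2 table of the same counts. The submitters' processing notes name FastQC, STAR, HTSeq and the mm10 build, without versions. The deposited log2 values were tested to be log2 transforms of the counts over a size factor per pool, with 1 added. Libraries were directional and depleted of ribosomal RNA, without molecular identifiers. Pools were assigned from the sample labels. The 3 genes and the gene lists were chosen with earlier results of these data known. Counts were filtered by filterByExpr (minimum count 10), scaled by TMM (factors 0.955 to 1.07) and fitted in 1 model of 4 cohorts, or of 2 groups of 6 pools, in edgeR 4.0.16 (R 4.3.3), tested on simulated data. The study describes the 3 pools of a cohort as independent and drawn from 3 mice, without stating that each pool is 1 mouse, so p-values measure the spread between pools, which may in part be technical. In the model of 2 groups this spread also holds the difference between the 2 cohorts of a group. For Zp2 the standard error was 0.12 there and 0.06 with cohort means in the model of 4 cohorts. Standard errors are the absolute log2 fold change over the square root of F. Alternatives used limma 3.58.1 and DESeq2 1.42.0. Named genes were the 3 members, their 5 nearest genes, Figla, Furin, Astl and, in each list, up to 2 called genes per direction, taken by size of change. Outside this rule, Sohlh2 was named after its values were seen. Alg2, Tgfbr3, Umodl1 and some cell type markers were named outside it too.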

Additional observations from a re-analysis of the deposited data

How the results depend on the processing

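Of 420 recomputed fold changes and ratios of the 3 genes, 379 kept their direction and their side of an adjusted p of 0.05. In PND 16 small vs. PND 13, the log2 fold change turned sign for Zp1 and Zp2 with total counts (-0.096 and -0.091), upper quartile scaling (-0.017 and -0.0095), no filter (-0.019 and -0.013), only the 2 cohorts fitted (-0.014 and -0.0069) and the granulosa marker level as covariate (-0.0052 and -0.00039), and for Zp1 without the 3 pools rich in granulosa markers (-0.048). Leaving out 1 pool gave -0.076 to 0.039 for Zp1, -0.074 to 0.070 for Zp2 and -0.12 to 0.0027 for Zp3. With total counts, which moved the median of all genes to -0.13 in PND 16 large vs. PND 13 and to -0.12 in PND 16 small vs. PND 13, Zp1 (-0.23) and Zp3 (-0.24) passed an adjusted p of 0.05 in PND 16 large vs. PND 13. Zp3 also passed there without replicate 1 of PND 13 (-0.23, adjusted p = 0.0456). Zp2 no longer passed in PND 16 large vs. PND 16 small with only these cohorts fitted (-0.31, adjusted p = 0.0831), nor Zp1 in PND 40 vs. PND 16 large scaled to oocyte markers (-0.29, adjusted p = 0.0603). The cause of these differences was not tested.

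Leaving out each pool in turn gave ranges of -0.38 to -0.30 for Zp1 and -0.43 to -0.37 for Zp3 in PND 40 vs. PND 16 large, and -0.34 to -0.24 for Zp1 and -0.38 to -0.27 for Zp3 in competent vs. non-competent oocytes. They were -0.36 to -0.26 for Zp2 and -0.23 to -0.10 for Zp3 in PND 16 large vs. PND 13 and -0.38 to -0.24 for Zp2 in PND 16 large vs. PND 16 small. Zp2 met both criteria in PND 40 vs. PND 13 and vs. PND 16 small in all recomputations.

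Without the fold criterion, the number of the 3 genes called was 1 in PND 16 large vs. PND 13, 1 in PND 16 large vs. PND 16 small, and 3 in the other comparisons except PND 16 small vs. PND 13. In PND 40 vs. PND 13 it was 2, not 1, with total counts and under the alternatives chosen after seeing the data (the granulosa marker level as covariate, leaving out the 3 pools rich in these markers, and scaling to oocyte markers), and 1 to 2 when 1 pool was left out. In competent vs. non-competent oocytes it was 1, not 0, with total counts, without the 3 pools and scaled to oocyte markers, and 0 to 1 when 1 pool was left out, as in PND 40 vs. PND 16 large.

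By the union of exons, Zp2 came to 1423 CPM per kb at PND 13, 1433 in PND 16 small, 1155 in PND 16 large and 796 at PND 40. Same-numbered pools did not deviate together (correlations -0.44 to 0.075), so the pools were not treated as paired. These correlations cannot show whether same-numbered pools were collected together. With the replicate block, the log2 fold change of Zp2 was -0.84 in PND 40 vs. PND 13 and -0.55 in competent vs. non-competent oocytes, no call of the 3 genes changed, and the log2 ratios kept their differences (0.28 and -0.25, exact permutation within replicate number, adjusted p = 0.0139).

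Over all genes, the 52 called in PND 16 small vs. PND 13 became 129 without the fold criterion, 25 with total counts, 10 with the block, 2 with only these cohorts fitted, 361 by DESeq2, 171 with the granulosa covariate, 17 without the 3 pools, 12 scaled to oocyte markers and 4 to 817 with 1 pool left out. Without the fold criterion, 1858 became 3567 (PND 16 large vs. PND 13), 863 became 1715 (PND 16 large vs. PND 16 small), 2637 became 4612 (PND 40 vs. PND 13), 2395 became 4207 (PND 40 vs. PND 16 small), 510 became 953 (PND 40 vs. PND 16 large) and 2087 became 4283 (competent vs. non-competent). With only the 2 cohorts fitted, 863 became 475 and 510 became 1081, which DESeq2 put at 782. Leaving out 1 pool gave 333 to 1144 in place of 863, 246 to 305 in place of 510 and 1154 to 1934 in place of 1858, and leaving out the 3 pools gave 1064 in place of 1858 and 1506 in place of 2637.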
